A study of Mus musculus with 8 samples.

Results

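The genes described here are Mpo, Elane, Prtn3, Ctsg, Ms4a3, Prss57, Ctsc and Gstm1, a set of primary granule proteases, the peroxidase stored beside them and genes expressed with them early in granulocyte development. They were chosen by name, and all 8 were found among the 31054 features counted. The data are droplet single-cell RNA counts (10x 3' chemistry, which counts unique molecular identifiers, UMIs, from the 3' ends of transcripts) from mouse bone marrow. The series asks what Gli1, a zinc-finger transcription factor of the Hedgehog pathway, does in blood-forming cells during marrow fibrosis driven by Jak2V617F, an activating mutation of the JAK2 kinase found in myeloproliferative neoplasms.

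There were 4 groups with 1 RNA library each. Donor marrow was Gli1-/- (labelled Gli1KO) and carried a JAK2V617F retrovirus, WT with the JAK2V617F retrovirus, Gli1-/- with a control JAK2WT retrovirus, or WT with the JAK2WT retrovirus. In all 4 groups the donors were 8 weeks old, and the marrow was taken and cultured for 48 hours before transplantation. The recipients in all 4 groups were female B6.SJL mice of 8 to 10 weeks irradiated with 10.5 Gy. Marrow was analysed at 112 days. In each group the cells of 3 mice were tagged with hashtag antibodies, depleted of CD11b, GR1, TER119, B220 and CD3 positive cells, pooled, and sorted as viable lineage-negative cells with and without GFP. The hashtag libraries were not analysed here, so the mice of a pool were not told apart. The promoter of the retrovirus and the proportion in which GFP-positive and GFP-negative cells were loaded are not given in the sources used here. With 1 library per group no test between groups was possible, and every interval below is a 95% interval for counting error only. "Higher" and "lower" state the order of these libraries.

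Primary, or azurophil, granules are the first granules to form in the neutrophil lineage. Their cargo is transcribed mainly in granulocyte-monocyte progenitors and promyelocytes, and the messages are switched off before the secondary granule proteins are made. Mpo encodes myeloperoxidase, a haem enzyme that makes hypochlorous acid. Elane (neutrophil elastase), Prtn3 (proteinase 3), Ctsg (cathepsin G) and Prss57 encode serine proteases of the granule. Ctsc encodes cathepsin C, a lysosomal cysteine protease that removes an N-terminal dipeptide from the granule serine proteases and so activates them; it is also made in many other leukocytes. Ms4a3 encodes a membrane protein used to trace the descendants of granulocyte-monocyte progenitors. Gstm1 encodes a cytosolic glutathione S-transferase of the mu class.

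Prtn3 (chr10:79874476-79883174, plus strand) and Elane (chr10:79886247-79888215, plus strand) are adjacent genes separated by 3073 bases in the mm10 annotation of GENCODE, and Prss57 (chr10:79781474-79790961, minus strand) lies 83515 bases from Prtn3 on the other strand. Mpo is at chr11:87793581-87804413 (plus strand), Ctsg at chr14:56099881-56102574 (minus), Ms4a3 at chr19:11629496-11640851 (minus), Ctsc at chr7:88278085-88310888 (plus) and Gstm1 at chr3:108012255-108017973 (minus). Mpo overlaps Gm11505, Prtn3 overlaps the start of Plppr3, Prss57 overlaps the end of Fstl3 and Ctsc overlaps Gm26522, each on the opposite strand. Whether reads were counted by strand is not given in the sources used here.

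The 250 bases before the RefSeq transcription start (GRCm38.p6, the mm10 assembly) are shown for Mpo, Elane, Prtn3 and Ctsg, the most abundant of the set in GMP-like cells (granulocyte-monocyte progenitors and promyelocytes, defined below), 5′ to 3′ on the gene's own strand. Capitals mark each match, on either strand, of GAGGAA (the core bound by PU.1), TTGCNNAA (C/EBP), TGTGGT (RUNX) or TATAAA (the box near many start sites). The windows are chr11:87793534-87793783 (plus) for Mpo, chr10:79886062-79886311 (plus) for Elane, chr10:79879417-79879666 (plus) for Prtn3 and chr14:56102575-56102824 (minus) for Ctsg. The RefSeq starts of Mpo, Elane and Prtn3 lie inside the GENCODE genes given above. All of the Prtn3 window and part of the Mpo and Elane windows therefore fall within those genes, while the Ctsg window lies wholly before its gene.
Mpo: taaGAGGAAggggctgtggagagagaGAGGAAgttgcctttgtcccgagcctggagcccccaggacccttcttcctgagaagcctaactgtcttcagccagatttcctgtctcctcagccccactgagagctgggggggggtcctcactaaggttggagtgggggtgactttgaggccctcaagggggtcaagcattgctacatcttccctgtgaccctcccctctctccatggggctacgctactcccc
Elane: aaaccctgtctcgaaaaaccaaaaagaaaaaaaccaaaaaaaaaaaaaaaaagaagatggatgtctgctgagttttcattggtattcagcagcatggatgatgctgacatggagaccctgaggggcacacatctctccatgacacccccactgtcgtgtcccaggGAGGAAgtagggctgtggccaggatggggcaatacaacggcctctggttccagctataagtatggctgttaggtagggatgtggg
Prtn3: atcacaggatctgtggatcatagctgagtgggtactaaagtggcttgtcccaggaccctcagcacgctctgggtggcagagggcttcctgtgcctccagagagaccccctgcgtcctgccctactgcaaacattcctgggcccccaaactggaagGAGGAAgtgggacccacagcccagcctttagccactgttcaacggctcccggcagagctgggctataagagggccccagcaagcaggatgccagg
Ctsg: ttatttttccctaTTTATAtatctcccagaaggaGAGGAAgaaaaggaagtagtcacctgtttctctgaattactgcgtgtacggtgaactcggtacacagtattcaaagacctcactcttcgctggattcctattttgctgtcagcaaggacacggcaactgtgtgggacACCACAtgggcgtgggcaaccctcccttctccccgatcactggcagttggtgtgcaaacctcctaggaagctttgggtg
All 4 windows held GAGGAA on the gene's own strand, at -247 and -224 in Mpo, -85 in Elane, -95 in Prtn3 and -216 in Ctsg, counted from the start site. Of 32851 mouse promoter windows of 300 bases (250 before the start and 50 after it), 28.3% held GAGGAA on either strand. Ctsg also held ACCACA, the reverse complement of TGTGGT, at -79, and TTTATA, the reverse complement of TATAAA, at -237. TGTGGT was in 16.8% and TATAAA in 13.6% of all windows. The search was for exact letters, so TATAAG on the gene's own strand in the Elane and Prtn3 windows was left unmarked. No window shown held TTGCNNAA, which was in 10.8% of all windows. The MYB motif AACNG was also searched on both strands and matched in all 4 windows, but 80.3% of all promoters held it. These matches describe letters and not binding.

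The libraries held 8762, 5907, 7155 and 12376 cell barcodes in Gli1KO JAK2V617F, WT JAK2V617F, Gli1KO JAK2WT and WT JAK2WT, with 114847114, 59165347, 84063880 and 72458173 UMIs. A filter on barcodes (500 or more genes detected, 1000 or more UMIs, less than 10% of UMIs mitochondrial) and the removal of predicted doublets left 6051, 3453, 3815 and 7210 cells. The median depth of kept cells was 13676, 13203, 17322 and 4421.5 UMIs, so the WT JAK2WT library was the shallowest per cell. Pairs of libraries shared 5 to 14 barcodes of kept cells. Gli1 had 4, 2, 1 and 0 UMIs, too few to check the genotype, and the retroviral JAK2 could not be told from endogenous Jak2 by the gene counts. Y-linked genes had 11924, 0, 9170 and 1 UMIs, so the Gli1KO and WT donor cells differed in sex, and sex and genotype cannot be told apart.

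Cells were clustered without the 8 genes, which were also left out of the marker lists. Of 30 clusters, 24 were named from 17 marker lists and 6 stayed unnamed. The cluster closest to granulocyte-monocyte progenitors and promyelocytes (GMP-like below) had 342, 322, 358 and 394 cells in Gli1KO JAK2V617F, WT JAK2V617F, Gli1KO JAK2WT and WT JAK2WT. Its leading genes were Alas1, Cebpe and Rgcc, and 12 or 13 of its 14 markers reached 50 UMIs per 1000000 (CPM) in each library. A pair of clusters with the markers of haematopoietic stem cells and multipotent progenitors (HSC/MPP-like) held 2428, 556, 567 and 328 cells. Within that pair, cluster 4 was led by Hlf, Meis1 and Angpt1, genes of the most primitive cells. Cluster 3 was led by Ung, Cpa3, Myc and Cd34, with Cebpa also among its leading genes. Cpa3 was a leading gene of a mast and basophil-like cluster too. The name of cluster 3 is the weaker, with a marker score of 0.984 (GMP-like list next at 0.48), against 2.05 for cluster 4. The monocyte-like class, led by F13a1, Ly86 and Ccr2, held 231, 69, 312 and 352 cells. Cluster 0, whose markers lay between the GMP-like and monocyte-like lists and which therefore has no name, held 356, 185, 235 and 248 cells.

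Across whole libraries the 8 genes took 1.08%, 1.08%, 1.43% and 1.25% of all UMIs in Gli1KO JAK2V617F, WT JAK2V617F, Gli1KO JAK2WT and WT JAK2WT. In the GMP-like class that share was 4.09%, 3.53%, 4.37% and 4.73% of the class's UMIs. In HSC/MPP-like cells it was 0.551%, 0.716%, 0.61% and 0.556%. Lineage depletion and the number of cells sorted into each class set the whole-library values, so the levels below are given by class.

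Elane had 15046 (95% interval 14968 to 15124), 9838 (9771 to 9905), 15084 (15016 to 15153) and 18173 (18077 to 18269) CPM in GMP-like cells of Gli1KO JAK2V617F, WT JAK2V617F, Gli1KO JAK2WT and WT JAK2WT. The WT JAK2V617F library stood lowest and the WT JAK2WT library highest, while the Gli1KO libraries had overlapping intervals. Mpo had 7940, 6259, 8745 and 8330 CPM there, again lowest in WT JAK2V617F. Prtn3 had 10622, 10266, 11252 and 13068 CPM, with WT JAK2WT above the other libraries. Ctsg had another order, with 4450 and 5682 CPM in Gli1KO and WT JAK2V617F cells against 5743 and 4660 CPM in Gli1KO and WT JAK2WT cells. WT JAK2V617F and Gli1KO JAK2WT were thus the higher pair. Ms4a3 had 1835, 2282, 1906 and 1957 CPM and was highest in WT JAK2V617F. Prss57 (364, 335, 397 and 396 CPM) and Gstm1 (601, 600, 560 and 705 CPM) varied little among the libraries. Ctsc had 52.1, 40.9, 40.2 and 25.6 CPM and was the only one of the 8 genes whose level in GMP-like cells was not the highest median over classes with 50 or more cells.

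**Figure D1:**
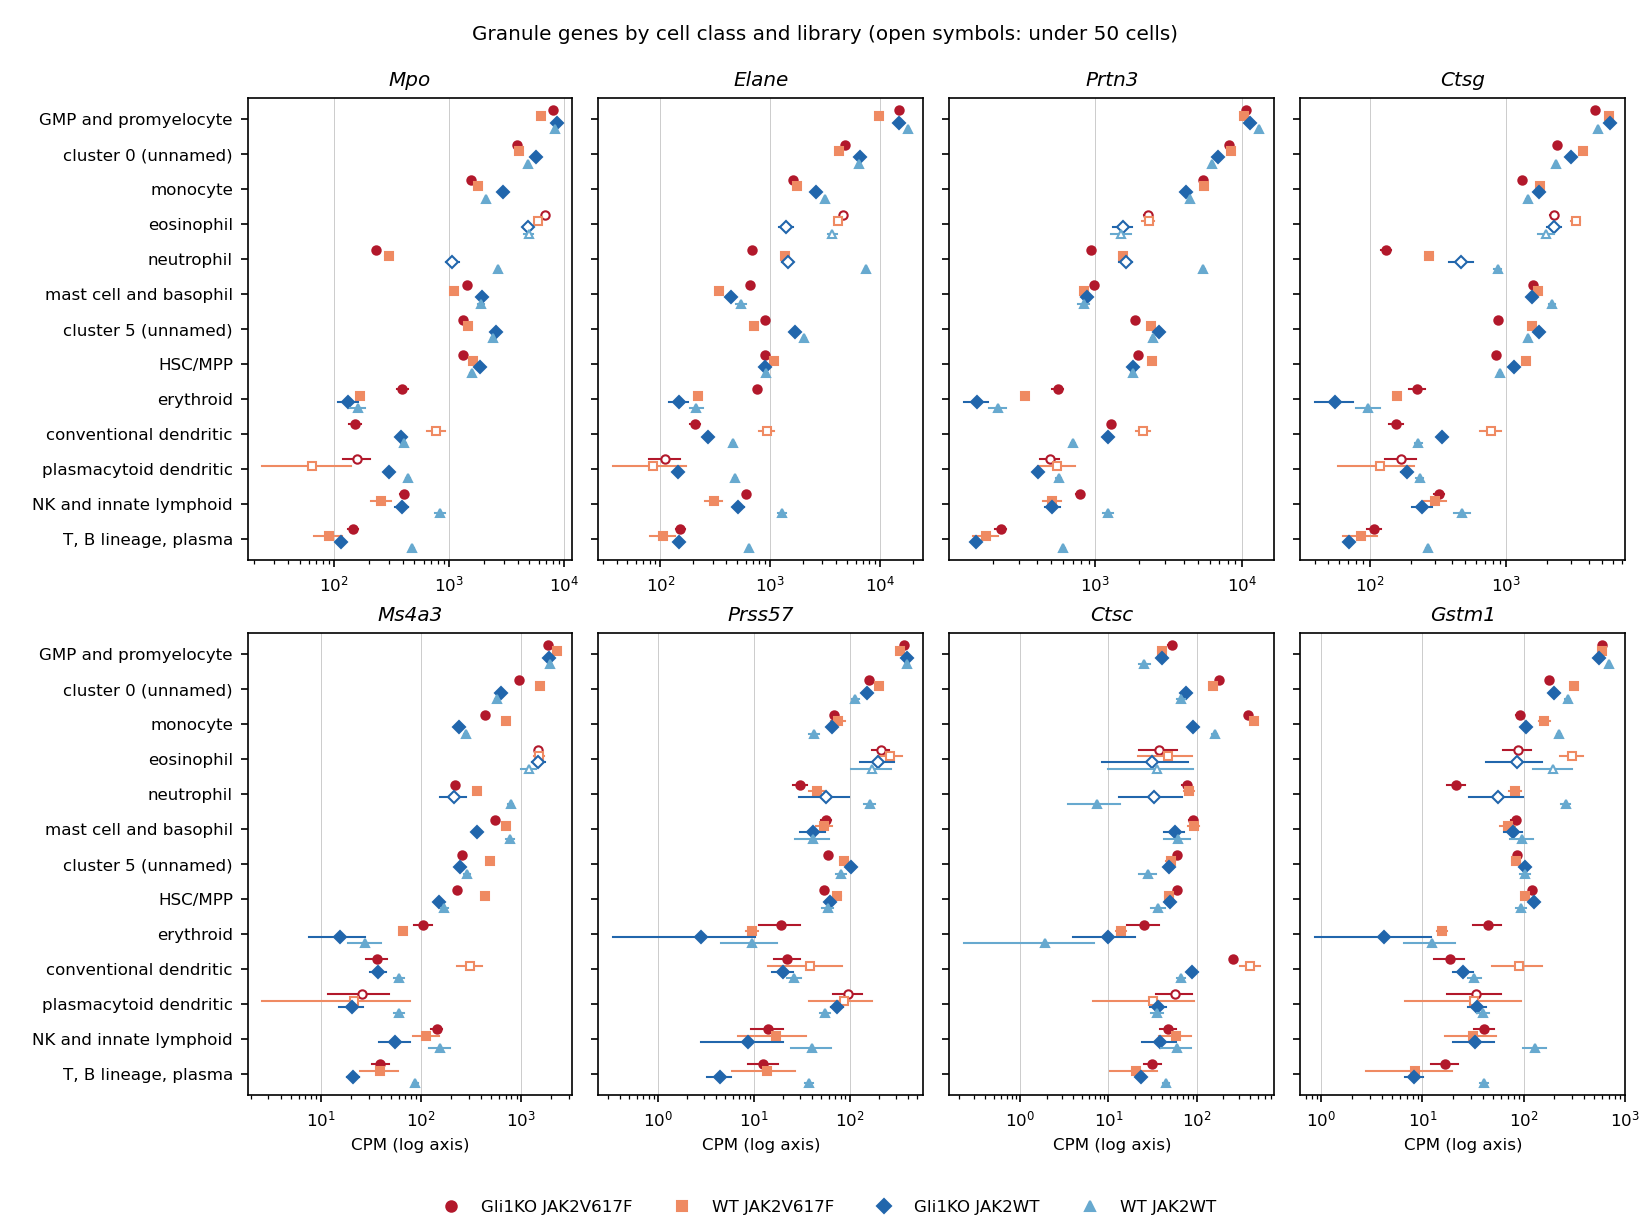
Level of each gene by cell class (CPM, log axis), 1 point per library with its 95% Poisson interval for counting error; open symbols mark classes with under 50 cells in that library. For 7 genes the GMP-like row lies farthest to the right among classes of 50 or more cells, while for Ctsc it lies below the monocyte-like row, whose points span 90.3 to 452 CPM.

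Single GMP-like cells nearly all carried these transcripts. After each cell was thinned to 2000 UMIs, Elane had a UMI in 100%, 99.4%, 100% and 100% of GMP-like cells, and Mpo and Prtn3 in 100% of them in every library. Ms4a3 had one in 94.7% to 95.8%, Gstm1 in 65.5% to 70.6% and Prss57 in 49.9% to 54.5%. Ctsc had one in 11.8%, 8.70%, 7.56% and 4.86% of GMP-like cells at that depth. Before thinning, the median GMP-like cell had 27472.5, 25795, 34323 and 19658.5 UMIs. The thinned shares therefore do not tell how many cells carried Ctsc. After thinning, the median GMP-like cell had UMIs of 6 of the 8 genes in each library. Per cell, Elane had a median of 153, 96.5, 153 and 175 UMIs per 10000, with the middle 80% of cells spanning 65.4 to 249 in Gli1KO JAK2V617F, 42.9 to 183 in WT JAK2V617F, 82.0 to 231 in Gli1KO JAK2WT and 91.9 to 271 in WT JAK2WT. The cells of the 4 libraries thus overlapped widely in Elane even though the pooled levels were far apart in counting error.

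Outside the GMP-like class the genes separated by lineage. Cluster 0 had 4766, 4200, 6616 and 6411 CPM of Elane and 8124, 8377, 6892 and 6217 CPM of Prtn3. The monocyte-like class kept a higher level of Prtn3 (5454, 5470, 4142 and 4384 CPM) relative to its Mpo (1551, 1791, 2959 and 2101 CPM). The ratio of Prtn3 UMIs to Mpo UMIs was 3.52, 3.05, 1.40 and 2.09 in monocyte-like cells, against 1.34, 1.64, 1.29 and 1.57 in GMP-like cells. Mast and basophil-like cells stood out for Ctsg: their Ctsg to Mpo ratio was 1.09, 1.55, 0.80 and 1.15, against 0.561, 0.908, 0.657 and 0.559 in GMP-like cells. In cluster 14, a basophil-like cluster led by Ccl6, Fcer1a and Prss34 with 52 and 51 cells in the JAK2V617F libraries and 0 and 2 in the JAK2WT libraries, Ctsg had 2188 and 2239 CPM in Gli1KO and WT cells. Mpo had 661 and 305 CPM in the same cells.

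Eosinophil-like cells, only 29, 17, 6 and 12 of them, also had Mpo (6848, 5968, 4848 and 4910 CPM) and Ms4a3 (1473, 1512, 1489 and 1185 CPM). Neutrophil-like cells, led by Ngp, Camp and Ltf, had less Mpo, with 231 and 298 CPM in Gli1KO and WT JAK2V617F cells, 1067 CPM in the 31 Gli1KO JAK2WT cells and 2673 CPM in WT JAK2WT cells. The last value depended on the clustering: at a resolution of 0.5 or 2.0 the same class of that library had 679 CPM in 94 cells. No comparison between libraries is drawn from the neutrophil-like class for that reason.

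Ctsc had its own distribution. It had 386, 452, 90.3 and 160 CPM in monocyte-like cells and 264 CPM in the 58 macrophage-like cells of WT JAK2WT. Conventional dendritic-like cells had 259, 89.4 and 66.8 CPM in Gli1KO JAK2V617F, Gli1KO JAK2WT and WT JAK2WT, and the 14 such cells of WT JAK2V617F had 404 CPM. Monocyte-like cells held 30.8%, 23.0%, 23.5% and 33.6% of all Ctsc UMIs, whereas GMP-like cells held 4.67%, 10.2%, 12.8% and 5.8%. For Elane the GMP-like share was 52.0%, 63.6%, 61.5% and 56.9%. Over all 8 genes GMP-like cells held 36.0%, 52.0%, 51.1% and 49.6% of the UMIs, and HSC/MPP-like cells held 17.6%, 8.68%, 5.47% and 2.57%. The 2428 HSC/MPP-like cells of Gli1KO JAK2V617F lie behind the first of these last shares.

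**Figure D2:**
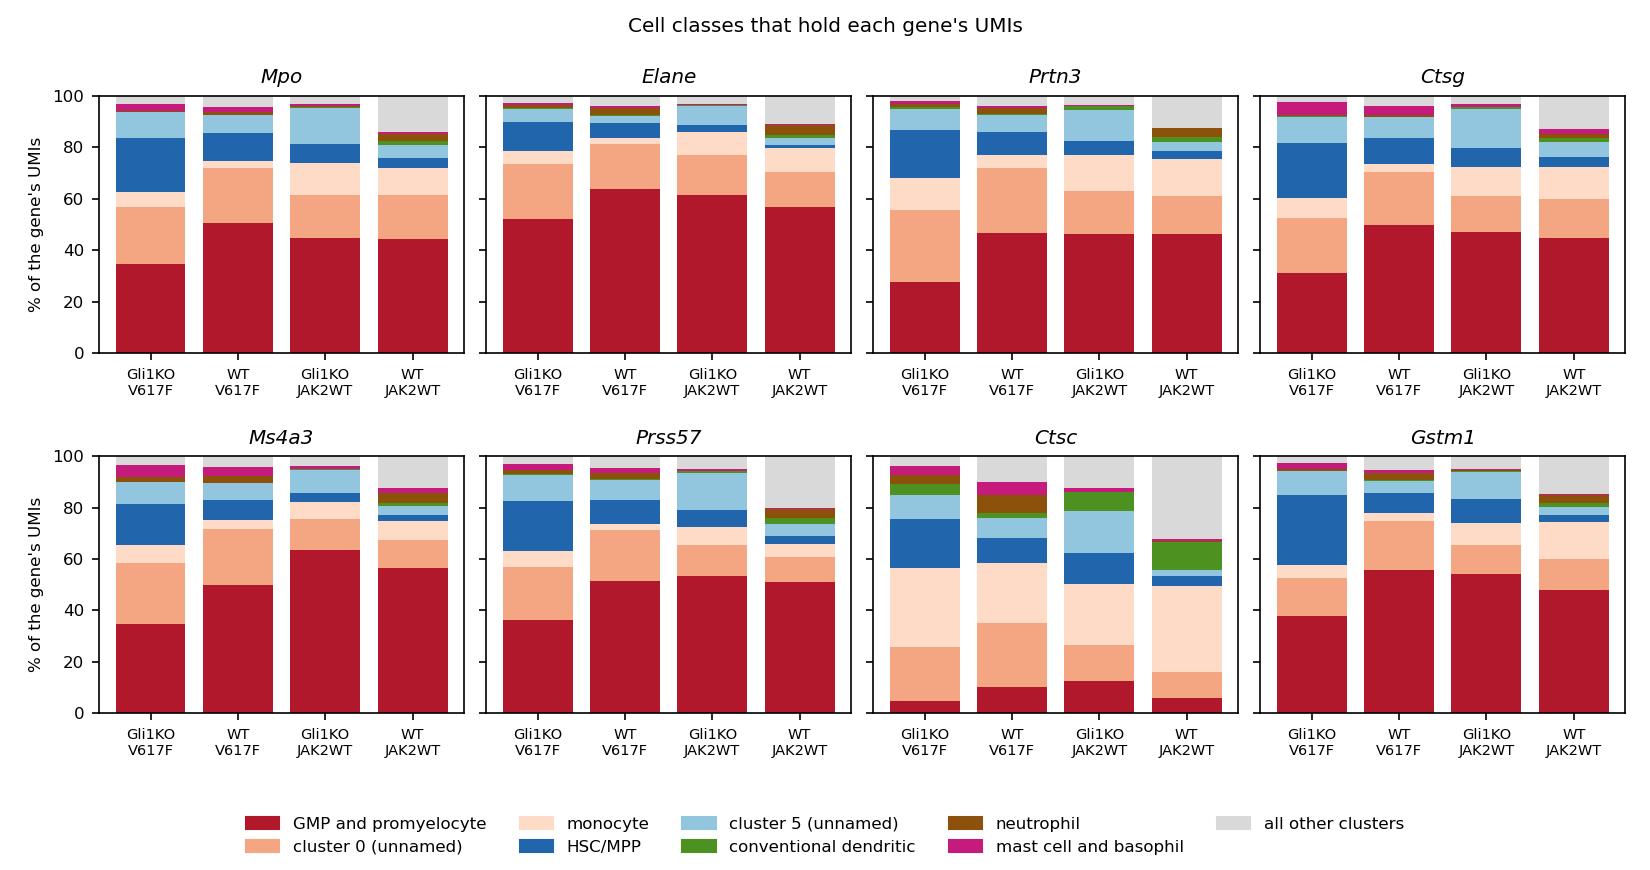
Percent of each gene's UMIs that lie in each cell class, 1 stacked bar per library (y axis, 0 to 100%), with small classes pooled as all other clusters. GMP-like cells hold 52.0% to 63.6% of Elane UMIs but 4.67% to 12.8% of Ctsc UMIs.

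In stem and multipotent progenitors 7 of the 8 genes were lower than in GMP-like cells in every library. Elane had 898, 1080, 893 and 926 CPM in HSC/MPP-like cells, and its level in GMP-like cells was 16.8, 9.11, 16.9 and 19.6 times as high. Mpo had 1334, 1609, 1874 and 1569 CPM, and Prtn3 had 1966, 2424, 1802 and 1799 CPM. Their GMP-like levels were 5.95, 3.89, 4.67 and 5.31 times as high for Mpo and 5.40, 4.24, 6.24 and 7.26 times as high for Prtn3. The step between the classes was thus larger for Elane than for Mpo or Prtn3 in every library. Ctsg had 847, 1384, 1138 and 905 CPM and Ms4a3 231, 438, 152 and 171 CPM. Gstm1 had 120, 104, 126 and 94.5 CPM and Prss57 54.3, 74.2, 62.5 and 58.6 CPM. Ctsc was the exception, with 59.2, 48.9, 49.3 and 36.8 CPM in HSC/MPP-like cells, above its GMP-like level in every library (GMP-like over HSC/MPP-like 0.881, 0.838, 0.815 and 0.695).

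The clusters within the HSC/MPP-like class differed. Elane had 2147, 1999, 1808 and 1378 CPM in cluster 3 and 243, 209, 187 and 467 CPM in cluster 4. Mpo had 2909, 2732, 3485 and 2431 CPM in cluster 3 and 507, 544, 630 and 691 CPM in cluster 4. All genes but Ctsc and Gstm1 were higher in cluster 3, the Cd34 and Cebpa cluster, than in cluster 4, the Hlf and Meis1 cluster, in every library. Ctsc had 60.5, 47.1, 46.9 and 35.6 CPM in cluster 3 and 58.5, 50.6, 51.2 and 38.0 CPM in cluster 4. Gstm1 had 130, 130, 120 and 84.8 CPM in cluster 3 and 115, 80.4, 131 and 104 CPM in cluster 4. The Elane level of GMP-like cells was 62.0, 47.0, 80.7 and 39.0 times that of cluster 4.

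Transcripts this abundant also appear in droplets as free RNA, and the lymphoid-like cells (T, B lineage and plasma, which should lack these granule genes) are set beside it as a comparison. Elane had 152, 105, 149 and 640 CPM in the 178, 61, 435 and 2200 lymphoid-like cells, so cluster 4 stood 1.60, 1.99, 1.25 and 0.729 times its lymphoid-like level. In WT JAK2WT the Elane level of cluster 4 was therefore below that of lymphoid-like cells. Mpo had 147, 89.7, 116 and 480 CPM in lymphoid-like cells, and cluster 4 stood 3.46, 6.06, 5.44 and 1.44 times as high. For Prtn3 those ratios were 4.29, 6.35, 5.40 and 1.78 and for Gstm1 6.89, 9.50, 15.7 and 2.57. The lymphoid-like pool held many plasma-like cells of high depth (59, 33, 372 and 289 cells, with a median of 30677 UMIs in Gli1KO JAK2WT), so cells were also compared after thinning each to 2000 UMIs. The mean UMIs of cluster 4 were then 1.84, 2.64, 3.42 and 1.19 times the lymphoid-like mean for Mpo and 2.21, 3.98, 3.75 and 1.39 times for Prtn3. They were 0.837, 1.06, 0.896 and 0.722 times for Elane and 1.33, 2.63, 2.63 and 0.876 times for Ctsg. At equal depth Elane of cluster 4 was thus near or below the lymphoid-like mean in every library, and the margins of Mpo, Prtn3 and Ctsg were smaller than by CPM. For Gstm1 the ratios were 4.16, 3.34, 9.82 and 2.10, and for Ms4a3 0.969, 1.82, 1.63 and 1.04. For Ctsc the lymphoid-like level is no measure of free RNA, since lymphocytes can make it.

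Shares of cells with a UMI were also set side by side. Thinning to 2000 UMIs left out 431, 203, 719 and 1748 shallower cells. Elane then had a UMI in 36.3%, 22.3%, 30.4% and 57.1% of cluster 4 cells, against 38.1%, 25.9%, 27.7% and 67.6% of lymphoid-like cells. These Elane shares are no higher than in lymphoid-like cells except in Gli1KO JAK2WT, although by CPM cluster 4 was the higher in 3 libraries. Prtn3 had a UMI in 77.4%, 73.1%, 71.5% and 83.5% of cluster 4 cells, against 50%, 31.5%, 25.1% and 69.3% of lymphoid-like cells. Mpo had one in 46.5%, 36.2%, 58.1% and 60.4% of cluster 4 cells, against 37.5%, 29.6%, 23.5% and 59.3%. Ctsg had one in 28.8% to 43.3% of cluster 4 cells, against 15.2% to 44.1% of lymphoid-like cells, and in WT JAK2WT cluster 4 was the lower (35.2% against 44.1%). Within the lymphoid-like pool plasma-like cells had low shares and T cell-like cells high ones, as for Mpo in Gli1KO JAK2WT (17.9% of plasma-like and 60.4% of T cell-like cells). T cell-like cells had Ctsg in 47.4%, 37.7% and 45.7% of cells in Gli1KO JAK2V617F, Gli1KO JAK2WT and WT JAK2WT, more often than cluster 4. In those 3 libraries Mpo and Ctsg of cluster 4 did not stand clear of the T cell-like shares, while Prtn3 of cluster 4 lay above the T cell-like shares of 66.7%, 56.6% and 73.4%. Gstm1 had one in 20.5%, 16.7%, 21.1% and 17.6%, against 5.62%, 5.56%, 2.37% and 9.20%. Cells with UMIs of at least 5 of the 8 genes made up 97.9%, 98.8%, 99.2% and 99.0% of GMP-like cells, 47.5%, 48.5%, 41.1% and 33.1% of cluster 3, and 8.00%, 8.05%, 4.53% and 9.89% of cluster 4. The median lymphoid-like cell had UMIs of 2, 1, 1 and 3 of the 8 genes, and the median cluster 4 cell of 2, 2, 2 and 3. The share of cells with at least 5 genes was 74.9%, 95.1%, 64.4% and 63.5% in cluster 0. It was 43.7%, 52.2%, 32.8% and 48.3% in monocyte-like cells, and 67.1% in the unnamed cluster 15 of WT JAK2WT. In lymphoid-like cells it was 6.88%, 1.85%, 1.66% and 10.99%, so in WT JAK2WT cluster 4 was below the lymphoid-like share. Nearly all GMP-like cells thus carried most of the set together, as did a part of cluster 3 and few cells of cluster 4. Such cells were also frequent in cluster 0 and the monocyte-like class. Without thinning, Elane had a UMI in 89.9%, 69.6%, 91.0% and 96.3% of all kept cells, lymphoid-like cells included.

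**Figure D3:**
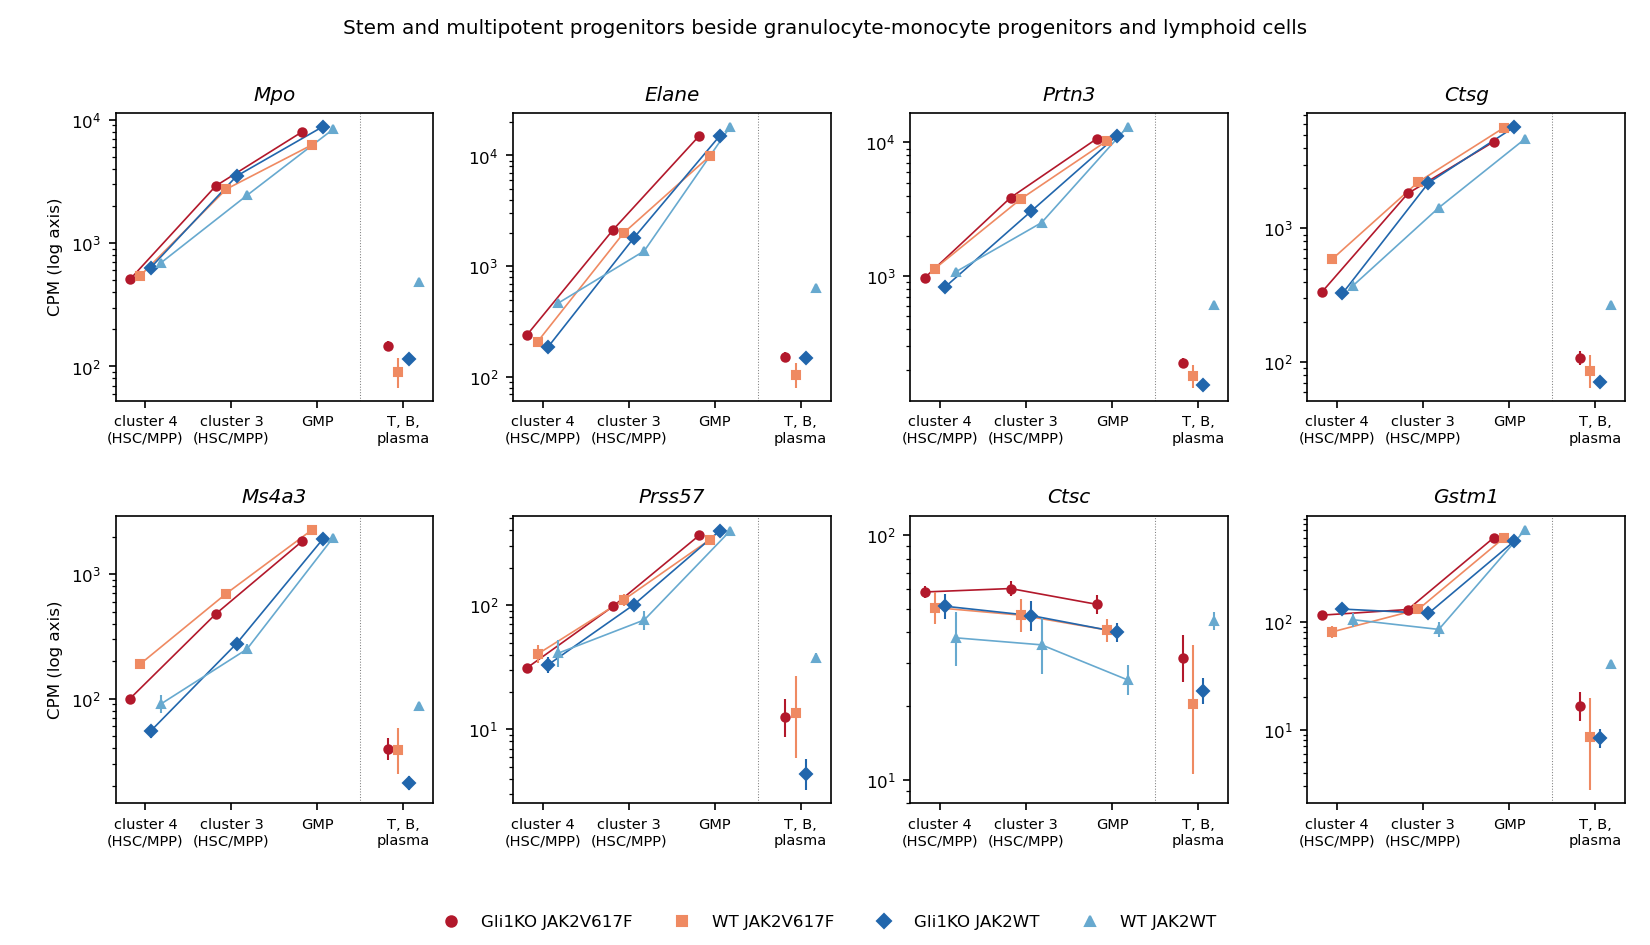
Level of each gene (CPM, log axis) in cluster 4 and cluster 3 of the HSC/MPP-like class, in GMP-like cells and, for comparison, in T, B lineage and plasma-like cells, with 95% Poisson intervals, 1 line or symbol per library. Elane in cluster 4 of WT JAK2WT (467 CPM) lies below the lymphoid-like level of that library (640 CPM), whereas its GMP-like level is 18173 CPM.

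The balance among the genes also differed between stages. The Elane to Mpo UMI ratio was 1.89, 1.57, 1.72 and 2.18 in GMP-like cells, 0.673, 0.672, 0.477 and 0.590 in HSC/MPP-like cells, and 1.04, 1.17, 1.29 and 1.33 in lymphoid-like cells. Of these 3 it was lowest in HSC/MPP-like cells in every library. Over 55 points (cell classes and unnamed clusters by library) the log2 CPM of every pair of genes other than Ctsc had a Pearson correlation of 0.84 to 0.97, while Ctsc had 0.18 to 0.40 with the others. The points share libraries, depth and free RNA, so these are descriptions. Within GMP-like cells Elane and Prtn3 had Spearman correlations over cells of 0.508, 0.51, 0.597 and 0.719.

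By the rule for likeness, the genes whose profile over the same 55 points was closest to the mean of the 8 were Plod3 (Pearson r = 0.913), Tfec (0.887), Msantd3 (0.886), Ap3s1 (0.883), Alas1 (0.881) and Etfb (0.879), of 6364 genes eligible. P4hb (0.869), Lbp (0.867), Dmkn (0.865) and Atp6ap2 (0.861) followed. The genes of the set, which are part of the mean, had 0.924 to 0.970 apart from Ctsc at 0.366. With Spearman's correlation 8 of these 10 neighbours were again among the closest 10, and with points of 30 or more cells 7 were, Plod3 not among them.

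The design sets JAK2V617F against JAK2WT within each donor genotype and Gli1KO against WT with each virus. A gene was called apart where the log2 ratio with 10 CPM added to both sides passed 1.5-fold and the higher library had 10 CPM or more. In GMP-like cells of Gli1KO marrow, 0 of the 8 genes differed so between JAK2V617F and JAK2WT, and 0.655% of all genes measured there did. In WT marrow 1 of 8, Elane, was lower in JAK2V617F than in JAK2WT, where 11.7% of all genes were called. Elane was the 1 gene higher in Gli1KO than in WT with JAK2V617F, against 1.49% of all genes, and 0 of 8 differed between Gli1KO and WT with JAK2WT, against 4.17%. The comparisons share libraries, so each value stands on its own.

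The log2 ratio of Elane in GMP-like cells was 0.00 for JAK2V617F over JAK2WT in Gli1KO and -0.88 (95% interval -0.90 to -0.87) in WT, a level 0.541 times as high. Gli1KO over WT it was 0.61 (0.60 to 0.62) with JAK2V617F and -0.27 (-0.28 to -0.26) with JAK2WT. The lower Elane of WT JAK2V617F against WT JAK2WT passed 1.5-fold under 14 of 14 processing alternatives, whereas its difference from Gli1KO JAK2V617F did so under 8 of 14 (range 0.19 to 0.66). For Mpo the ratios were -0.14 in Gli1KO and -0.41 in WT for the virus, and 0.34 with JAK2V617F and 0.07 with JAK2WT for the donor genotype. All 4 Mpo ratios lay within 1.5-fold. For Ctsg the signs were opposite between donor genotypes: JAK2V617F over JAK2WT was -0.37 (-0.38 to -0.35) in Gli1KO and 0.29 (0.27 to 0.31) in WT. Ms4a3 had -0.05 and 0.22, Prtn3 -0.08 and -0.35, Prss57 -0.12 and -0.24, and Gstm1 0.10 and -0.23 for the same pair of comparisons. Ctsc was higher with JAK2V617F in both, at 0.31 (0.16 to 0.46) and 0.52 (0.33 to 0.71), but within 1.5-fold with 10 CPM added; the WT ratio passed 1.5-fold in 9 of 14 alternatives.

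**Figure D4:**
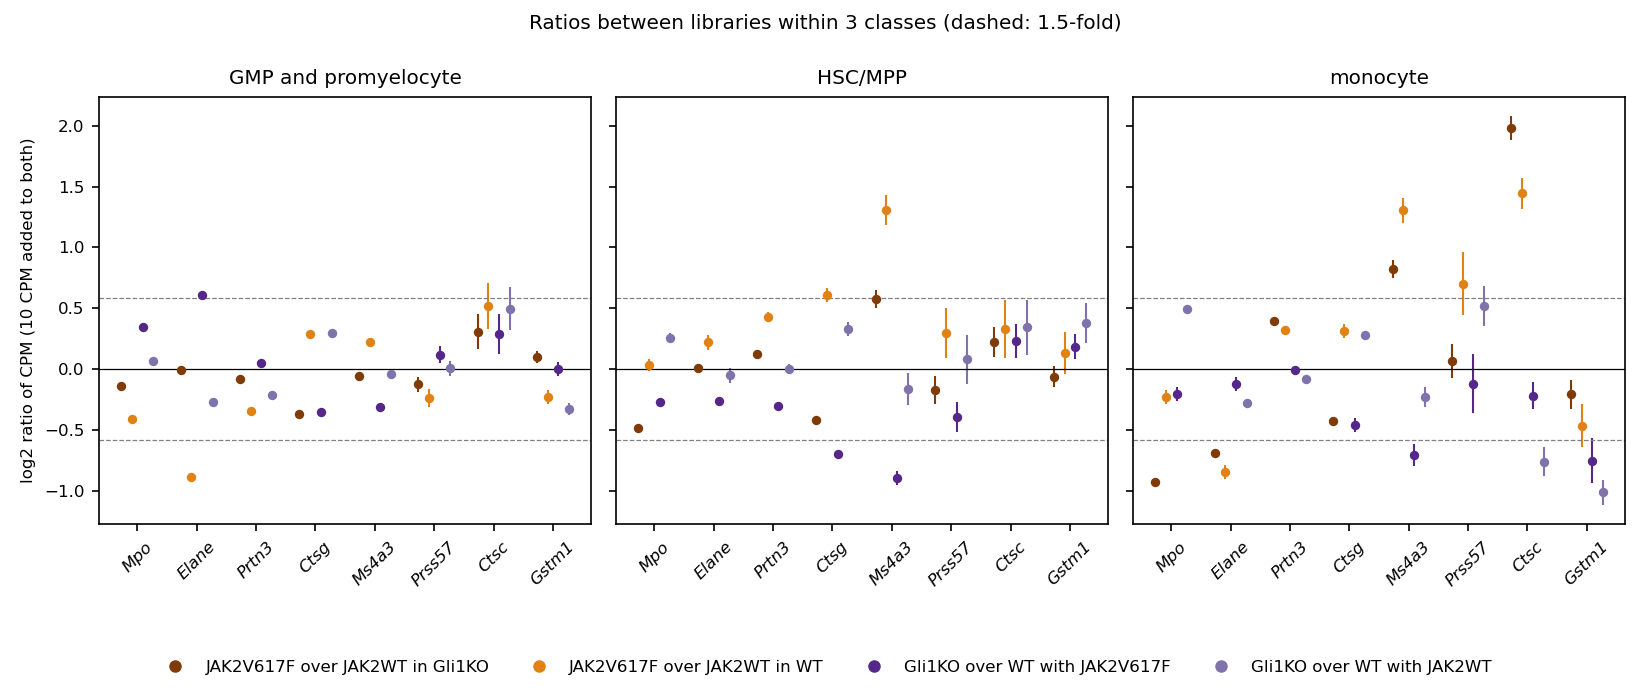
Log2 ratio (10 CPM added) of each gene in 4 comparisons, in GMP-like, HSC/MPP-like and monocyte-like cells, with 95% intervals for counting error; dashed lines mark 1.5-fold. Elane is at -0.88 for JAK2V617F over JAK2WT in WT GMP-like cells, and Ctsc at 1.98 and 1.44 in monocyte-like cells of Gli1KO and WT.

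The makeup of the GMP-like class moved with the libraries. At finer clustering, sub-cluster 35, with the highest Fcnb (an early marker of neutrophil maturation), held 2.92%, 3.42%, 5.87% and 40.4% of the class, which is 10, 11, 21 and 159 cells. Its Elane level was 19185, 17774, 22324 and 23360 CPM, above that of the largest sub-cluster in each library. The 10 neutrophil markers summed to 1017, 1075, 619 and 9148 CPM in the GMP-like class, of which S100a8 had 343, 614, 191 and 6376 CPM, and 1 of them was at 0, in Gli1KO JAK2WT. In the largest sub-cluster (263, 230, 219 and 201 cells) Elane had 15931, 10155, 15187 and 15446 CPM. There Elane was again low in WT JAK2V617F alone: the log2 ratio was 0.65 for Gli1KO over WT with JAK2V617F, -0.60 (-0.62 to -0.59) for JAK2V617F over JAK2WT in WT, 0.07 in Gli1KO and -0.02 for Gli1KO over WT with JAK2WT. In sub-cluster 4, of 66, 74, 118 and 34 cells, Elane had 12240, 8142, 14263 and 14811 CPM, also lowest in WT JAK2V617F. Mki67, a gene of cycling cells, had 183, 196, 247 and 322 CPM in sub-cluster 4. It had 268, 259, 208 and 184 CPM in sub-cluster 35, against 45.3, 79.3, 71.9 and 88.3 CPM in the largest sub-cluster.

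**Figure D5:**
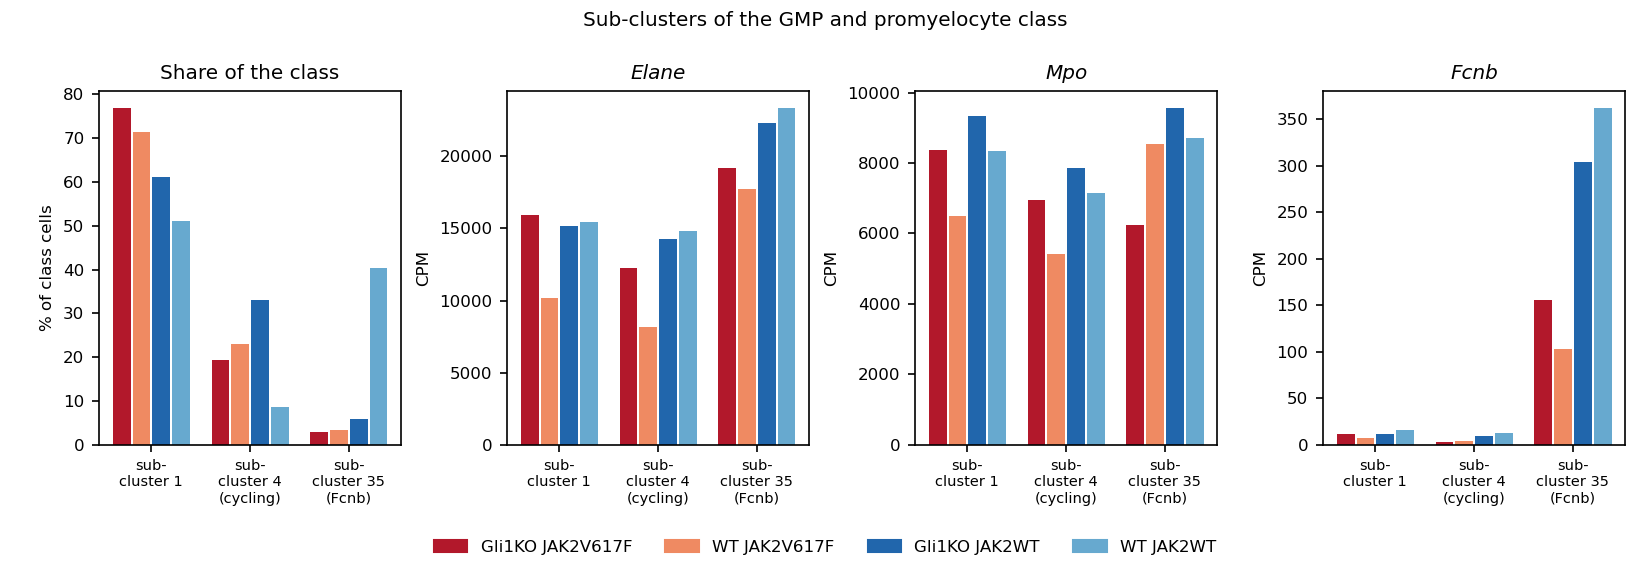
Sub-clusters 1, 4 (cycling) and 35 (Fcnb-high) of the GMP-like class by library: percent of the class and levels of Elane, Mpo and Fcnb (CPM, bars start at 0). Cycling is not particular to sub-cluster 4. Mki67 of sub-cluster 35 was above sub-cluster 1 in every library and above sub-cluster 4 in both JAK2V617F libraries. Sub-cluster 35 is 40.4% of the class in WT JAK2WT and 2.92% to 5.87% elsewhere, and Elane is lowest in WT JAK2V617F in each sub-cluster.

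In HSC/MPP-like cells the pair of genes that differed was Ms4a3 and Ctsg. Ms4a3 had 231 and 438 CPM in Gli1KO and WT JAK2V617F cells, against 152 and 171 CPM in Gli1KO and WT JAK2WT cells, with WT JAK2V617F the highest of the 4. JAK2V617F over JAK2WT, its log2 ratio was 1.31 (1.19 to 1.43) in WT and 0.58 (0.50 to 0.65) in Gli1KO. Gli1KO over WT, it was -0.89 (-0.95 to -0.83) with JAK2V617F and -0.16 (-0.29 to -0.03) with JAK2WT. Ctsg, with its level of 1384 CPM in WT JAK2V617F also the highest, had 0.61 (0.55 to 0.67) in WT and -0.42 (-0.45 to -0.39) in Gli1KO for the virus. Gli1KO over WT it had -0.70 (-0.73 to -0.67) with JAK2V617F and 0.33 (0.27 to 0.39) with JAK2WT. The higher Ctsg of WT JAK2V617F against WT JAK2WT lay close to 1.5-fold and passed it in 9 of 14 alternatives.

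By count, 0 of 8 genes were called for the virus in Gli1KO HSC/MPP-like cells (0.622% of all genes) and 2, both higher in JAK2V617F, in WT (7.84% of all genes). With JAK2V617F the same 2 genes were lower in Gli1KO than in WT (0.879% of all genes), and with JAK2WT 0 of 8 were called (3.37% of all genes). The cluster 3 share of the class differed between libraries (633, 230, 192 and 131 cells, against 1795, 326, 375 and 197 in cluster 4), so both were read apart. Within cluster 4 Ms4a3 had 99.8, 190, 54.8 and 90.5 CPM, with log2 ratios of 0.99 (0.76 to 1.22) for JAK2V617F over JAK2WT in WT and 0.76 (0.61 to 0.91) in Gli1KO, although at equal depth it was close to the lymphoid-like mean in Gli1KO JAK2V617F and WT JAK2WT. Within cluster 3 it had 481, 699, 277 and 250 CPM, with ratios of 1.45 (1.31 to 1.59) and 0.77 (0.69 to 0.86). Ctsg in WT was at 0.65 in cluster 4 and 0.63 in cluster 3 for the same comparison. At equal depth (2000 UMIs) Ctsg of cluster 4 was 0.876 times the lymphoid-like mean in WT JAK2WT and 2.63 times in WT JAK2V617F. Lymphoid-like cells of the same libraries had 39.4, 38.9, 20.9 and 87.5 CPM of Ms4a3. With these CPM subtracted its WT ratio over the whole class was 2.13, and over all 14 alternatives it was 0.97 or more.

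Monocyte-like cells gave the widest differences, above all for Ctsc. With 386 CPM in Gli1KO JAK2V617F and 90.3 CPM in Gli1KO JAK2WT, its level was 4.28 times as high (log2 ratio 1.98, 1.88 to 2.08). With 452 CPM in WT JAK2V617F and 160 CPM in WT JAK2WT it was 2.83 times as high (1.44, 1.32 to 1.57). Ctsc was thus higher with JAK2V617F in monocyte-like cells of both donor genotypes. Ms4a3 had 431, 710, 239 and 282 CPM, with ratios of 0.82 (0.75 to 0.90) in Gli1KO and 1.30 (1.20 to 1.40) in WT for the same comparison. Elane went the other way, with 1625, 1770, 2629 and 3187 CPM and ratios of -0.69 (-0.72 to -0.66) and -0.84 (-0.90 to -0.79). Mpo had 1551, 1791, 2959 and 2101 CPM, and its ratio was -0.93 (-0.96 to -0.90) in Gli1KO and -0.23 in WT.

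In Gli1KO monocyte-like cells 4 of 8 genes were past 1.5-fold between JAK2V617F and JAK2WT, Ctsc and Ms4a3 higher and Mpo and Elane lower, where 4.35% of all genes were. In WT 4 of 8 were, Ctsc, Ms4a3 and Prss57 higher and Elane lower, against 12.0% of all genes. The Prss57 ratio of 0.70 (0.44 to 0.96) in WT became -0.63 when cells were thinned to 2000 UMIs. Gli1KO against WT, Ms4a3 and Gstm1 were lower with JAK2V617F (2 of 8, and 2.20% of all genes), and Ctsc and Gstm1 were lower with JAK2WT (2 of 8, and 5.42% of all genes). Gstm1 had 91.2, 161, 107 and 225 CPM, lower in both Gli1KO libraries, with log2 ratios of -0.75 (-0.94 to -0.57) and -1.01 (-1.12 to -0.91). Only 69 monocyte-like cells came from WT JAK2V617F.

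The content of the monocyte-like class moved with the virus. The 10 neutrophil markers summed to 1285, 5481, 109 and 227 CPM in it, with 0, 1, 1 and 1 of them at 0, and the 10 HSC/MPP markers to 1185, 1624, 629 and 276 CPM. Both sums were higher in the JAK2V617F libraries, whereas the 10 monocyte markers summed to 2874, 2737, 2682 and 4281 CPM. Of 10 secondary granule genes 7 were measured, and JAK2V617F over JAK2WT 5 were higher and 0 lower in Gli1KO (median 1.11) and 4 higher and 1 lower in WT (median 1.04). Of all genes measured in the class, 4.35% in Gli1KO and 12.0% in WT were past 1.5-fold in the same comparisons. Hp, the haptoglobin gene, had 496, 709, 198 and 340 CPM and Lcn2 69.2, 325, 9.02 and 23.2 CPM, both higher with JAK2V617F in either donor genotype. Irf8, a transcription factor of monocyte and dendritic development, had 373, 295, 684 and 596 CPM and was lower with JAK2V617F in both (-0.86 and -0.99). The part of these shifts in the Ctsc, Ms4a3, Elane and Mpo ratios was not tested.

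Clusters 0 and 5, which have no name, are given as values. In cluster 0 Ctsc had 180, 155, 75.4 and 67.1 CPM, and its log2 ratio for JAK2V617F over JAK2WT was 1.15 (1.03 to 1.28) in Gli1KO and 1.09 (0.93 to 1.26) in WT. Ctsc was higher with JAK2V617F there as in the monocyte-like class, with which cluster 0 shares the leading genes F13a1, Ly86 and Ccr2. Ms4a3 had 954, 1530, 626 and 568 CPM in cluster 0, with ratios of 0.60 in Gli1KO and 1.41 in WT. In cluster 5, a cycling cluster of 675, 270, 429 and 158 cells with HSC/MPP markers but led by Pf4, a megakaryocyte gene, Elane had 907, 718, 1700 and 2057 CPM, lower in both JAK2V617F libraries. Mpo had 1321, 1453, 2566 and 2387 CPM there, also lower in both.

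As medians, the 8 genes in GMP-like cells had log2 ratios of -0.07 (JAK2V617F over JAK2WT in Gli1KO), -0.23 (in WT), 0.08 (Gli1KO over WT with JAK2V617F) and -0.02 (with JAK2WT), beside 0.01, 0.10, -0.02 and 0.07 over all genes measured. In HSC/MPP-like cells they had -0.03, 0.31, -0.28 and 0.17, beside 0.01, 0.03, 0.02 and 0.02. In monocyte-like cells the medians were -0.07, 0.32, -0.21 and -0.15, beside -0.01, 0.01, 0.01 and 0.05. The set thus had no common direction across classes.

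Genes that act on or beside the granule proteases were read in GMP-like cells from 6 lists. Of all genes measured there, 0.655%, 11.7%, 1.49% and 4.17% were past 1.5-fold in the 4 comparisons, in the order used above. These shares stand beside the counts of every list below. Of 12 transcriptional regulators of the lineage, 10 were measured at 10 CPM or more, and 0 were past 1.5-fold in any of the 4 comparisons. With such shares over all genes, 0 of 10 does not set the regulators apart. Their medians were 0.02, 0.00, -0.01 and 0.03. Cebpe, needed for granulocyte maturation, had 230, 201, 213 and 214 CPM, and Gfi1, a repressor mutated in human neutropenia, had 108, 104, 95.6 and 81.4 CPM. Spi1, which encodes PU.1, had 259, 266, 257 and 215 CPM. Myb, a factor of immature progenitors, had 682, 539, 666 and 571 CPM. Cebpe and Gfi1, and Alas1, Clec12a, Serpinb1a, Hp and Fcnb below, also served to name the class.

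Among inhibitors of the proteases 6 of 10 genes were measured, with medians of 0.04, 0.03, -0.02 and -0.09. Serpinb1a, which encodes an inhibitor of elastase, proteinase 3 and cathepsin G, had 709, 804, 676 and 714 CPM and was within 1.5-fold throughout. Slpi, a secreted inhibitor of elastase and cathepsin G, had 219, 198, 234 and 337 CPM, and its log2 ratio of -0.74 for JAK2V617F over JAK2WT in WT was past 1.5-fold. Serpina3g was higher in the same comparison (1.38) at low levels of 27.1, 32.0, 18.1 and 6.20 CPM, and higher in Gli1KO than in WT with JAK2WT (0.79). Cst7, which encodes the cathepsin C inhibitor cystatin F, had 351, 365, 359 and 367 CPM.

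All 13 packaging and folding genes were measured, with medians of 0.00, 0.03, 0.06 and 0.13. Srgn, the proteoglycan core that holds the proteases in the granule, had 5390, 4338, 4714 and 5075 CPM, within 1.5-fold in the 4 comparisons. Cd63, a granule membrane tetraspanin that sorts elastase, had 378, 595, 266 and 1013 CPM. Cd63 was lower in Gli1KO than in WT with either virus (-0.64 with JAK2V617F and -1.89 with JAK2WT) and lower in JAK2V617F than in JAK2WT in WT (-0.76). Alas1, which encodes the first enzyme of haem synthesis, had 638, 526, 729 and 358 CPM and was higher in Gli1KO than in WT with JAK2WT (1.01). Lyst, a lysosomal trafficking regulator, was lower in JAK2V617F than in JAK2WT in WT (-0.60). Of 13 other primary granule and lysosomal genes 10 were measured and 1, Clec12a, an inhibitory receptor of myeloid cells, was past 1.5-fold, lower in JAK2V617F than in JAK2WT in WT (-0.86). The medians of that list were 0.04, 0.09, 0.20 and 0.30.

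Of 10 secondary granule genes 6 or 7 were measured, depending on the comparison, with medians of 0.34, -0.57, -0.06 and -1.06. Fcnb, which encodes ficolin B, had 13.6, 9.0, 21.6 and 138 CPM and Camp, the cathelicidin gene, 17.0, 15.7, 14.2 and 122 CPM, both highest in WT JAK2WT, the library with most cells in the Fcnb-high sub-cluster. Of the list, 0 genes were higher and 5 lower in Gli1KO than in WT with JAK2WT (4.17% of all genes were called). In WT 1 was higher and 3 lower in JAK2V617F than in JAK2WT (11.7% of all genes). In Gli1KO 2 were higher and 0 lower with JAK2V617F (0.655% of all genes). With JAK2V617F 1 was lower in Gli1KO than in WT (1.49% of all genes). Lcn2, which encodes an iron-chelate binding protein, had another order, with 82.2, 260, 38.1 and 35.1 CPM, higher in JAK2V617F in both donor genotypes (0.94 in Gli1KO and 2.58 in WT). Of 19 neighbours and paralogs 9 were measured, with medians of 0.09, 0.22, 0.05 and 0.22. Cfd, the gene on the other side of Elane at 2638 bases, had 0.417, 0.840, 0.813 and 1.19 CPM in GMP-like cells, near 0 beside Elane. Ctsl and Mcpt8 were higher and Ctsh lower in JAK2V617F than in JAK2WT in WT (0.82, 0.73 and -0.70), and 0 were past 1.5-fold in the other 3 comparisons.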

How the data were processed

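Single-cell libraries (10x 3' v3.1) of pooled, lineage-depleted bone marrow were analysed from the deposited raw UMI count matrices, 1 per group. Per the submitters' processing notes, Cell Ranger 4.0.0 and Seurat 4.0.4 were used with build mm10; alignment settings are not given in the sources used here. Cells with 500 genes, 1000 UMIs and under 10% mitochondrial UMIs were kept, and Scrublet removed 0.8% of cells per 1000 barcodes (439, 149, 184 and 777 in Gli1KO JAK2V617F, WT JAK2V617F, Gli1KO JAK2WT and WT JAK2WT). Clustering (scanpy 1.11.5; 2000 variable genes less the members, 30 components, 15 neighbours, resolution 1) was named from markers where a class scored 0.5, led by 0.2 and had 3 markers at 50 CPM; mixed or shallow clusters stayed unnamed. Counts were summed per class and library; intervals are exact Poisson or Clopper-Pearson, and by the delta method for log2 ratios with 10 CPM added. Classes needed 50 cells for a ratio. PCR duplicates are collapsed by UMIs, but libraries, not cells, are the replicates, and each group has 1. Named genes are the 8 members, the 10 closest by profile and list genes past 1.5-fold or central to the granule; Cfd was added after its values were seen. The members and lists were chosen with earlier results of these data known. Promoter sequences are from RefSeq (7 of 8 members matched). The fold call was tested on simulated Poisson counts with planted folds, and the thinning against its expected means. The simulated counts hold no variation between mice or libraries, so they say nothing on differences between groups.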

Additional observations from a re-analysis of the deposited data

Results flagged for a closer look

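The results here have opposite signs in the 2 strata of the same contrast, with neither counting interval reaching 0 and the strata at least 1.5-fold apart. With 1 library per stratum none of these differences was tested, and both readings of a gene rest on the same 4 libraries. In GMP-like cells Elane was higher in Gli1KO than in WT with JAK2V617F (log2 ratio 0.61) and lower with JAK2WT (-0.27).

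Ctsg had this pattern in 3 classes. In GMP-like cells JAK2V617F over JAK2WT was -0.37 in Gli1KO and 0.29 in WT, and Gli1KO over WT was -0.35 with JAK2V617F and 0.30 with JAK2WT. In HSC/MPP-like cells the values were -0.42 in Gli1KO and 0.61 in WT for the virus, and -0.70 with JAK2V617F and 0.33 with JAK2WT for the donor genotype. In monocyte-like cells they were -0.42 and 0.31, and -0.46 and 0.28. Ctsg of JAK2V617F over JAK2WT in GMP-like cells stayed between -0.60 and -0.29 in Gli1KO and between 0.13 and 0.47 in WT over 14 alternatives.

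Mpo in monocyte-like cells was lower in Gli1KO than in WT with JAK2V617F (-0.21) and higher with JAK2WT (0.49).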

How the results depend on the processing

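Each level, share and log2 ratio was recomputed under 14 alternatives at most, of which 1 (subtracting the lymphoid-like UMIs per cell) was added after seeing the data. The counts of genes past 1.5-fold were also recomputed with other minimum CPM. The sub-clusters, also added after seeing the data, are not among these alternatives. Monocyte-like cells fell under 50 or lost their name in some alternatives, which then gave no value. Most recomputed levels and shares of UMIs moved by more than the counting interval. Of 768 recomputed levels in classes, 186 moved by less than it. Of 288 levels over all kept cells 41 did, and of 288 shares of UMIs in GMP-like cells 26 did. The intervals given with levels and shares therefore do not cover the choice of processing. Of 1248 recomputed log2 ratios 614 moved by less than the counting interval, 633 by more, and 1 called value reversed. The reversed value was Prss57 in monocyte-like WT cells, -0.63 when thinned to 2000 UMIs. Elane in GMP-like WT cells, JAK2V617F over JAK2WT, ranged from -1.05 to -0.75 and passed 1.5-fold in 14 of 14; Gli1KO over WT with JAK2V617F it ranged from 0.19 to 0.66 and passed in 8 of 14. Ms4a3 in HSC/MPP-like WT cells ranged from 0.97 to 2.13 (14 of 14). Ctsc in monocyte-like cells ranged from 1.37 to 2.24 in Gli1KO (12 of 12) and from 0.82 to 1.89 in WT (10 of 10). Elane in HSC/MPP-like WT cells (0.22) was -1.42 with doublets kept and 1.74 with lymphoid-like CPM subtracted; the cause was not tested.

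The number of genes past 1.5-fold changed as follows. In GMP-like WT cells (1, JAK2V617F against JAK2WT) it was 2 with 1 CPM added, with 1000 genes and under 5% mitochondrial UMIs required, with doublets kept, with either lymphoid-like subtraction, as a mean over cells, with the members in the clustering, at resolution 2.0 and thinned to 1000 UMIs. In GMP-like Gli1KO cells (0) it was 1 with doublets kept and thinned to 2000. For GMP-like Gli1KO over WT with JAK2V617F (1) it was 0 under the stricter filter, the mean over cells, the members in the clustering, resolution 2.0 and thinning to 1000; with JAK2WT (0) it was 3 under the stricter filter and 1 with 1 CPM added, doublets kept, either subtraction and resolution 2.0. In HSC/MPP-like Gli1KO cells (0) it was 5 with doublets kept, 2 with UMIs per cell subtracted, and 1 with 1 CPM added, the mean over cells, the members in the clustering and thinning to 1000. In HSC/MPP-like WT cells (2) it was 7 and 6 with lymphoid-like CPM and UMIs per cell subtracted, 4 thinned to 1000, and 1 under the stricter filter, median-of-ratios scaling and totals without haemoglobin genes. For HSC/MPP-like Gli1KO over WT with JAK2WT (0) it was 7 with CPM subtracted and 1 with UMIs per cell subtracted, the members in the clustering and thinning to 1000. For monocyte-like Gli1KO over WT with JAK2V617F (2) it was 1 with 50 CPM added, the mean over cells and thinning to 1000; with JAK2WT (2) it was 4 with CPM subtracted or the members in the clustering and 1 with 50 CPM added, resolution 0.5 and thinning to 2000. Free RNA, 1 library per group and donor sex limit every difference between groups. No paired analysis was possible because each group has 1 library.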

Other observations

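Some of the genes had a second place of expression. Gstm1 had 545, 892, 330 and 410 CPM in cluster 28, a stromal-like cluster of 11, 27, 5 and 19 cells in Gli1KO JAK2V617F, WT JAK2V617F, Gli1KO JAK2WT and WT JAK2WT, where GMP-like cells had 601, 600, 560 and 705 CPM. Prss57 had 96.6, 86.1, 73.8 and 55.1 CPM in plasmacytoid dendritic-like cells (21, 6, 142 and 635 cells), and 83.0 CPM in a T cell-like cluster of 566 cells in WT JAK2WT, where all lymphoid-like cells together had 37.5 CPM.

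GFP, the reporter used for the sort, had a UMI in 59, 90, 6 and 42 kept cells. In GMP-like cells 7, 12, 0 and 11 cells had one, and Mpo with over without GFP had log2 ratios of -0.35, -0.24 and 0.01 in Gli1KO JAK2V617F, WT JAK2V617F and WT JAK2WT. Elane had 0.02, -0.30 and 0.11. With so few cells, transduced and untransduced cells could not be told apart by transcript.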
